A study of Mus musculus with 2 samples.

Results

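Trp53, the gene of the transcription factor p53, and 9 genes that p53 is known to switch on (Mdm2, Ccng1, Phlda3, Eda2r, Bax, Zmat3, Aen, Sesn2 and Perp) were followed in single-cell RNA sequencing counts of 2 libraries of induced myogenic progenitor cells (iMPCs). The 10 genes were taken by symbol from the 25828 features of the count matrices, and each symbol named 1 feature. iMPCs are expandable cells, close to muscle stem cells, that were made from mouse embryonic fibroblasts of genotype Tg:Pax7-nGFP/C57BL6;DBA2, in which a nuclear green fluorescent protein reports the stem cell factor Pax7. Both cultures received MyoD, the factor that turns fibroblasts toward muscle, as synthetic mRNA in 4 transfections, with B18R, a decoy receptor for type I interferons, in the medium. The medium of both also held Forskolin (F), an activator of adenylyl cyclase, RepSox (R), a TGF-β receptor inhibitor, and CHIR (C), an activator of Wnt signalling (F/R/C). The F/R/C+CP culture had CP, an inhibitor of JAK kinases, in addition, so the libraries are also called with CP and without CP. Each library is 1 clone, strained to remove multinucleated muscle fibres, so the most mature muscle cells were under-sampled, and the effects of CP, of the clone and of the library cannot be told apart.

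p53 is held low by Mdm2, the ubiquitin ligase that marks it for destruction, and is stabilised by DNA damage and other stresses. Since p53 itself switches on Mdm2, the pair forms a feedback loop, and since the control acts on the protein, the level of Trp53 mRNA is no direct measure of p53 activity. Its targets stop the cell cycle (Cdkn1a), set off or assist cell death (Bax, Aen, Perp), dampen growth signals (Phlda3, Sesn2), bind and regulate RNA (Zmat3), or encode receptors (Eda2r). In muscle precursors Cdkn1a is also switched on by the differentiation programme itself, without p53.

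p53 binds pairs of a 10-letter consensus, the p53 half-site, which reads the same on both strands. Windows from 250 bases before to 50 bases after the gene start were taken from RefSeq on GRCm38.p6, an older build than the GRCm39 of the counts, and searched for the half-site. Of the 10 genes, 8 had a window, and 5 of these 8 held a match, against 9.55% of 27025 genes with a window. The 5 stretches are shown because they are the letters by which p53 is known to read DNA, next to the genes whose levels follow. They run 5′ to 3′ along the gene's own strand, with the half-site in capitals.

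Mdm2: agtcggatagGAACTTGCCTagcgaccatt
Ccng1: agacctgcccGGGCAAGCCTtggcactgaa
Trp53: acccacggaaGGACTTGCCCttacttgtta
Bax: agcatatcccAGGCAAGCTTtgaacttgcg
Aen: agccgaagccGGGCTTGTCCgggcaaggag

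The Mdm2 stretch lies at chr10:117710925-117710954 (minus strand) and that of Ccng1 at chr11:40755452-40755481 (minus strand). The Trp53 stretch lies at chr11:69580274-69580303 (plus strand), the Bax stretch at chr7:45467080-45467109 (minus strand) and the Aen stretch at chr7:78895927-78895956 (plus strand), where the site begins 10 bases past the start. In Ccng1 the 10 letters just before the match fitted the half-site in 9 of 10 positions, so a near-complete pair stands there. In the other 4 genes the better of the directly adjoining stretches fitted in 5 to 7 positions (Mdm2 5, Aen 7, Trp53 7, Bax 7). Only letters directly next to the match were scored, so a partner set off from it by spacer letters would be missed. A match to letters describes this window only, and binding was not measured.

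Sequencing of the F/R/C iMPCs gave 5541 barcodes and 36999292 unique molecular identifiers (UMIs, each standing for 1 captured transcript end), and that of the F/R/C+CP iMPCs 12000 barcodes and 313078984 UMIs. After the limits of the study on genes and on mitochondrial and ribosomal counts, 3962 and 10834 barcodes were kept, with medians of 7112 and 21844.5 UMIs, and the shallowest F/R/C+CP barcode held 12097 UMIs against 500 without CP. Whether the number of F/R/C+CP barcodes was preset was not given in the sources used here, so the numbers and depths of the barcodes may not have been set in the same way in both libraries. The libraries shared 18 barcodes. Kept barcodes were divided, within each library, into Acta1-high (the 10% with the largest share of skeletal α-actin), Myog-high (of the rest, those richest in myogenin, up to 10% of the kept barcodes), cycling (of the rest, those richest in 12 mitotic genes, up to 15%) and Pax7-positive (of the rest, at least 1 Pax7 UMI), which gave 396, 396, 594 and 1394 F/R/C barcodes and 1083, 1083, 1625 and 4711 F/R/C+CP barcodes. These classes are ranges of a measure and not cell types, and the Pax7 cut depends on depth: Pax7 in Pax7-positive barcodes stood at 309 CPM (counts per 1000000 UMIs) without CP and at 147 CPM with CP. Of 5 connective tissue markers, 5 had counts in the Pax7-positive class of each library, summing to 267 and 153 CPM, against 12.9 and 11.6 CPM in the Acta1-high class, and 4 melanocyte markers summed to at most 0.804 CPM in the F/R/C classes and to between 1.59 and 40.4 CPM in those of F/R/C+CP. What part such cells had in the levels below was not tested.

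Levels are CPM of the summed counts of a class, with exact Poisson 95% intervals. Ratios are log2 values with conditional binomial 95% intervals, and both cover counting error only. With 1 library a group there is no replicate and no test, so a ratio of 2-fold or more is a description of size. Levels are compared between classes and libraries for the same gene, not between genes.

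Trp53 mRNA was present in every class and was lower in the more differentiated barcodes of both libraries. In F/R/C iMPCs it stood at 109 CPM (102 to 115) in Pax7-positive, 123 CPM (114 to 133) in cycling, 64.2 CPM (55.5 to 73.8) in Myog-high and 23.7 CPM (18.5 to 29.96) in Acta1-high barcodes. In F/R/C+CP iMPCs the levels were 80.1, 89.6, 52.0 and 19.8 CPM in the same order. The order of the 4 classes was thus the same in both libraries, with only the intervals of the cycling and Pax7-positive classes of F/R/C overlapping, and the highest class exceeded the lowest 5.19-fold and 4.53-fold. Acta1-high over Pax7-positive gave -2.20 (-2.57 to -1.85) without CP and -2.02 (-2.12 to -1.92) with CP, where the median of features at 50 CPM or more was -0.53 and -0.32. Between the libraries, Trp53 was lower with CP by a log2 ratio of -0.53 over all kept barcodes, against a median of -0.14 for features at 50 CPM or more. Within classes the difference was -0.44 in Pax7-positive, -0.46 in cycling, -0.30 in Myog-high and -0.26 in Acta1-high barcodes, the last with an interval (-0.61 to 0.11) that holds 0. Among barcodes in the UMI range held by both libraries the direction turned, to 0.20 over all kept barcodes, on 190 F/R/C barcodes.

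**Figure D1:**
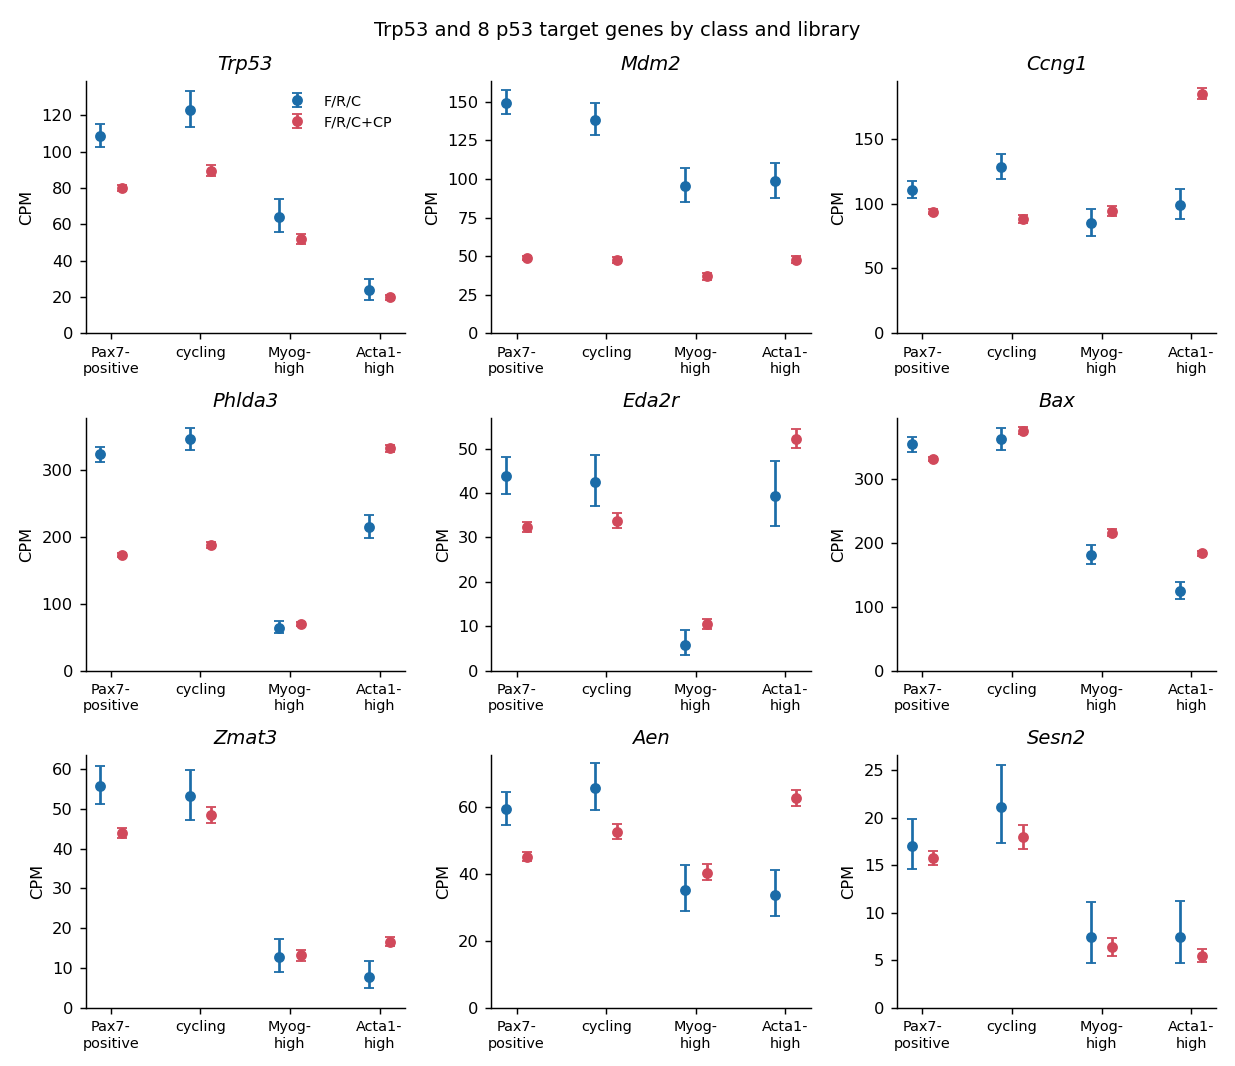
Levels of Trp53 and of 8 targets in CPM (linear axis from 0) by class, in F/R/C (blue) and F/R/C+CP (red), with points for the summed counts of 1 library and bars for exact Poisson 95% intervals. Mdm2 is lower with CP in every class, whereas Phlda3 and Eda2r dip in Myog-high barcodes of both libraries.

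Mdm2 was the member that differed most between the libraries over all kept barcodes. It stood at 134 CPM over all kept F/R/C barcodes and at 46.6 CPM over all kept F/R/C+CP barcodes, 2.87-fold lower (log2 ratio -1.52, -1.57 to -1.47). In F/R/C iMPCs its levels were 149 CPM (142 to 157) in Pax7-positive, 138 CPM in cycling, 95.6 CPM in Myog-high and 98.6 CPM in Acta1-high barcodes, and in F/R/C+CP iMPCs 48.6, 47.4, 37.0 and 47.8 CPM. The lowest F/R/C class was therefore above the highest F/R/C+CP class. The log2 ratio was -1.62 (-1.70 to -1.54) in Pax7-positive, -1.55 in cycling, -1.37 in Myog-high and -1.04 (-1.22 to -0.86) in Acta1-high barcodes. Mdm2 was the only 1 of the 10 members past 2-fold over all kept barcodes, where 26.4% of 17999 measured features were past 2-fold in either direction and 14.3% were so in the lower direction. Among features at 10 CPM or more, which leaves the noisiest ones out, 8.03% were past 2-fold lower, and Mdm2 was again the only 1 of 9 measured members. These counts were near the background, so the count itself says little about the members as a set.

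In thinned barcodes, cut at random to 2000 UMIs each so that depth is equal, 22.2% (20.03 to 24.5, exact Clopper-Pearson 95% interval) of Pax7-positive F/R/C barcodes had an Mdm2 UMI, against 8.60% (7.81 to 9.43) of F/R/C+CP ones. Without thinning the shares were 55.2% and 56.2%, at median depths of 7012 and 19562 UMIs, so the shares differed only at equal depth. Among Acta1-high barcodes 16.4% (12.7 to 20.8) and 9.0% (7.32 to 10.8) of the thinned barcodes had one. At this depth the share with a UMI follows from the level, so it restates the difference in CPM.

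The libraries did not differ in this way at the other feedback genes. Mdm4, the partner of Mdm2 that masks p53, stood at 87.6 and 88.0 CPM over all kept barcodes, a log2 ratio of 0.01. Of the 12 feedback genes and regulators of p53, 0 were past 2-fold over all kept barcodes and 3 were higher, with a median of -0.13, next to a median of -0.13 over all measured features. Of its genes at 20 CPM or more, Hipk2, a kinase that phosphorylates p53, had the highest ratio (0.43) and Ep300, an acetyltransferase that p53 recruits, the lowest (-0.38).

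Ccng1, the gene of cyclin G1, which brings a phosphatase to Mdm2, was nearly level over all kept barcodes, at 109 CPM without CP and 113 CPM in F/R/C+CP (log2 ratio 0.04, -0.01 to 0.10). That level hid an opposite difference by class. In Pax7-positive barcodes it was 111 CPM against 93.7 CPM and in cycling barcodes 128 CPM against 88.0 CPM, lower in F/R/C+CP (-0.24 and -0.54). In Acta1-high barcodes it was 99.2 CPM (88.2 to 111) in F/R/C against 185 CPM (181 to 189) with CP, a log2 ratio of 0.90 (0.73 to 1.07). Relative to Pax7-positive barcodes, Ccng1 in Acta1-high barcodes had the highest ratio of the members with CP (0.98, 0.94 to 1.02), apart from Perp with few counts, while without CP the ratio was -0.16 (-0.35 to 0.03), an interval that holds 0, and 0.38 relative to the median of features at 50 CPM or more.

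**Figure D2:**
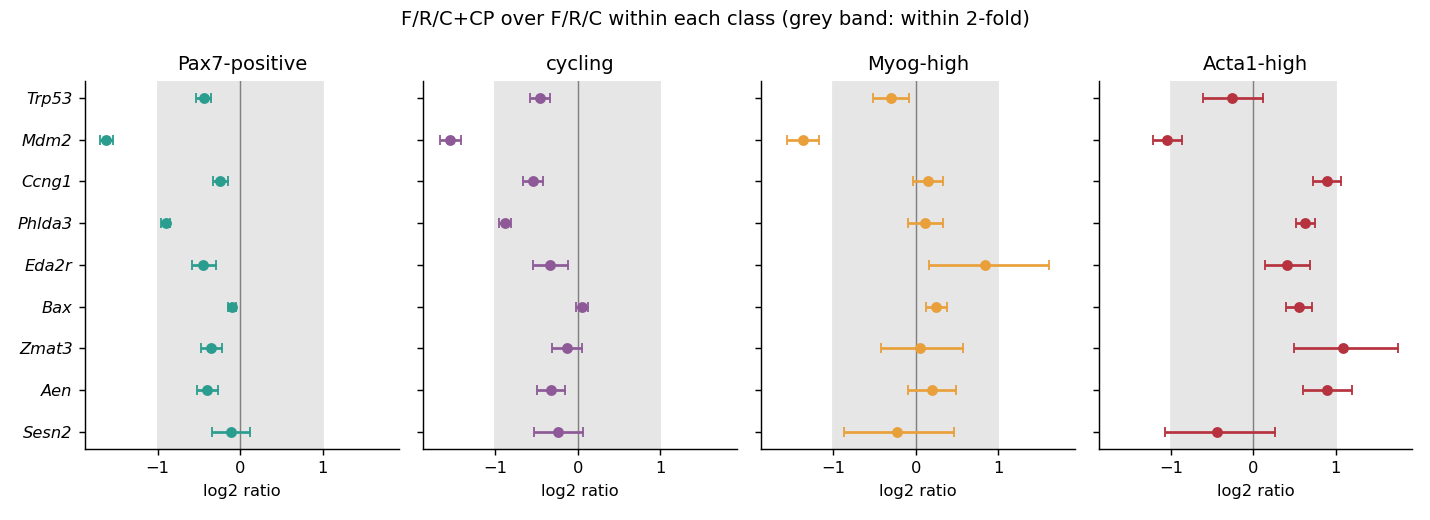
Log2 ratios of F/R/C+CP relative to F/R/C for Trp53 and 8 targets within each class, with conditional binomial 95% intervals and the range within 2-fold in grey. Mdm2 lies left of the grey band in all 4 classes, and 6 of the other 8 genes lie right of 0 in Acta1-high barcodes.

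The direction of the difference between the libraries depended on the class for most of the targets. In Pax7-positive barcodes 0 of 9 measured members were higher with CP and 1, Mdm2, was past 2-fold lower, beside 13.7% of all measured features. In cycling barcodes 1 of 9 was higher, Bax (0.05, -0.02 to 0.12), with an interval that holds 0, and Mdm2 alone was past 2-fold lower, beside 13.1%. In Myog-high barcodes 6 of 9 were higher and Mdm2 alone was past 2-fold lower, beside 13.5%. Of these 6, Ccng1, Phlda3, Zmat3 and Aen had intervals that hold 0, and Eda2r and Bax did not. In Acta1-high barcodes 6 of 9 were higher, Mdm2 was past 2-fold lower, beside 15.5%, and 1 was past 2-fold higher, beside 9.37%. The latter was Zmat3, at 7.79 CPM (23 counts) without CP and 16.6 CPM (771 counts) with CP, a log2 ratio of 1.09 (0.49 to 1.76) that turned to -0.33 in the UMI range held by both libraries, on 42 F/R/C barcodes. In each class the counts of members past 2-fold were thus near the shares of all features. The median over the members was -0.40, -0.33, 0.12 and 0.55 in the 4 classes, where the median over all measured features was -0.12, -0.12, -0.15 and -0.11. Acta1 itself stood at 11204 CPM in Acta1-high barcodes of F/R/C and at 15786 CPM in those of F/R/C+CP, whose median depths were 7876.5 and 40901 UMIs and median mitochondrial shares 11.3% and 5.81%. The part of these in the higher target levels was not tested.

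Phlda3, whose product blocks the kinase Akt at the membrane, and Eda2r, a receptor of the tumour necrosis factor receptor family, had the deepest dip in Myog-high barcodes among members that were higher again in Acta1-high barcodes of both libraries. Phlda3 without CP stood at 323 CPM (312 to 334) in Pax7-positive, 345 CPM in cycling, 64.2 CPM (55.5 to 73.8) in Myog-high and 215 CPM (198 to 232) in Acta1-high barcodes. In F/R/C+CP iMPCs it stood at 173, 187, 69.6 and 332 CPM. Myog-high barcodes were its lowest class in both libraries, as they were for Mdm2 with much smaller differences, and the Acta1-high class was between them and the Pax7-positive class in F/R/C but the highest of all with CP.

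Eda2r had the same dip. It stood at 43.9, 42.5, 5.83 and 39.3 CPM in the Pax7-positive, cycling, Myog-high and Acta1-high barcodes of F/R/C, the third of these from 18 counts (3.46 to 9.22 CPM). With CP the levels were 32.3, 33.8, 10.5 and 52.2 CPM. Myog-high over Pax7-positive gave -2.91 (-3.68 to -2.23) without CP and -1.62 (-1.80 to -1.45) with CP for Eda2r, and -2.33 and -1.31 for Phlda3. Acta1-high over Myog-high gave 2.75 (2.03 to 3.56) and 2.32 (2.14 to 2.50) for Eda2r, and 1.74 and 2.25 for Phlda3. They were the only members past 2-fold higher in that comparison, 2 of 9 measured in each library, beside 11.3% of features without CP and 15.2% with CP, and Trp53 was the only 1 of 9 past 2-fold lower (-1.44 and -1.39), beside 22.2% and 19.4%. With class limits of 20, 20 and 30% in place of 10, 10 and 15%, the ratios without CP were 0.27 for Phlda3 and 0.997 for Eda2r, both under 2-fold. As a mean of CPM per barcode, that of Trp53 was -0.71. Acta2, the smooth muscle actin gene and the main part of the summed pericyte or smooth muscle markers, stood at 155, 201, 1035 and 1003 CPM in the 4 classes without CP and at 337, 230.1, 1244 and 660.3 CPM with CP. Myh11, Rgs5 and Cspg4 of the same list were at or below 0.972 CPM each in Myog-high barcodes without CP, where Cspg4 had 0 counts, and at or below 0.974 CPM with CP. The part of Acta2-rich barcodes in the dip was not tested.

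The thinned shares, which follow from the levels, were likewise lowest in Myog-high barcodes. An Eda2r UMI was found in 7.60% (6.25 to 9.13) of Pax7-positive, 1.10% (0.301 to 2.80) of Myog-high and 9.09% (6.26 to 12.7) of Acta1-high F/R/C barcodes, and in 6.26%, 1.75% and 9.42% of the F/R/C+CP ones. Without thinning the Eda2r shares were 24.3%, 3.79% and 21.2% without CP and 42.8%, 17.4% and 73.3% with CP. For Phlda3 the thinned shares were 45.5%, 10.5% and 32.6% without CP and 28.4%, 10.7% and 42.2% with CP, and the unthinned ones 82.2%, 33.6% and 64.9% without CP and 92.5%, 71.0% and 98.7% with CP. No class here is known to lack these genes, so free RNA was gauged by genes that name the other classes. Pax7 in Acta1-high barcodes was at 2.63% of its Pax7-positive level without CP and at 4.39% with CP, and Acta1 in Pax7-positive barcodes at 1.26% and 7.46% of its Acta1-high level. Pax7 and Acta1 also cut these classes, so their reference levels are high by design. The connective tissue markers, used in no cut, stood in Myog-high barcodes at 6.69% of their Pax7-positive level without CP and at 8.61% with CP. The lowest Eda2r level, in F/R/C Myog-high barcodes, was 13.3% of that in Pax7-positive barcodes, on 18 counts. The part of free RNA in it was not tested.

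Bax, Zmat3 and Sesn2, like Trp53, had lower levels in both differentiated classes than in Pax7-positive barcodes. Bax, whose product opens the outer mitochondrial membrane in apoptosis, stood at 355, 363, 181 and 125 CPM in the Pax7-positive, cycling, Myog-high and Acta1-high barcodes of F/R/C and at 332, 376, 216 and 184 CPM in those of F/R/C+CP. The order of the classes was the same in both libraries. Acta1-high over Pax7-positive gave -1.50 (-1.66 to -1.35) without CP and -0.85 (-0.89 to -0.82) with CP.

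Zmat3, a zinc finger protein that binds RNA, showed one of the steepest differences of the list, from 55.9 CPM (51.3 to 60.7) in Pax7-positive to 12.6 CPM in Myog-high and 7.79 CPM (4.94 to 11.7) in Acta1-high barcodes of F/R/C. With CP the levels were 43.9, 13.2 and 16.6 CPM. Acta1-high over Myog-high with CP thus gave 0.33 (0.15 to 0.52) for Zmat3, against -1.39 for Trp53. The log2 ratio of Acta1-high over Pax7-positive was -2.84 without CP and -1.40 with CP. Sesn2, a stress-induced inhibitor of the growth kinase mTORC1, was at 17.1, 21.2, 7.45 and 7.45 CPM in the 4 classes of F/R/C and at 15.8, 18.0, 6.35 and 5.49 CPM in those of F/R/C+CP. Its 2 differentiated classes had overlapping intervals in both libraries.

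Aen, an exonuclease that takes part in DNA breakdown during apoptosis, stood at 59.5, 65.8, 35.3 and 33.9 CPM in the 4 classes of F/R/C and at 45.2, 52.6, 40.4 and 62.7 CPM in those of F/R/C+CP. Acta1-high barcodes were thus its lowest class without CP, with an interval (27.6 to 41.2 CPM) overlapping that of Myog-high barcodes, and its highest class with CP. Perp, a membrane protein of cell junctions and a p53 death target, was close to absent, with 3 counts over all kept F/R/C barcodes and 26 over the F/R/C+CP ones. A Perp UMI was found in 0 of 1369 thinned Pax7-positive barcodes of F/R/C, which allows a share of up to 0.219% (3 counts over the total, for barcodes with a UMI and not for expressing cells), and in 1 of 4711 of F/R/C+CP.

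Counted together, 4 of 9 measured members were past 2-fold lower in Myog-high than in Pax7-positive barcodes in each library, the same 4 genes (Phlda3, Eda2r, Zmat3 and Sesn2), beside 26.5% of features without CP and 27.9% with CP. With class limits of 20, 20 and 30%, 2 of the 4 (Phlda3 and Eda2r) stayed past 2-fold in each library, and with overlapping classes 2 of the 4 with CP (Zmat3 and Sesn2). In Acta1-high over Pax7-positive barcodes, 4 of 9 were past 2-fold lower in F/R/C (Trp53, Bax, Zmat3 and Sesn2), beside 39.7% of features, and 3 of 10 in F/R/C+CP (Trp53, Zmat3 and Sesn2), beside 39.9%. Perp was past 2-fold higher there on 6 counts in each class (1.15, -0.76 to 3.05), an interval that holds 0, beside 12.1% of features past 2-fold higher. The members' shares were near the background in the Acta1-high comparisons, so the count itself says little about the members. In cycling over Pax7-positive barcodes 0 of 9 were past 2-fold in either library, beside 7.27% of features without CP and 8.49% with CP, and the 9 ratios lay between -0.11 and 0.31 without CP and between -0.09 and 0.22 with CP.

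To see where along differentiation the levels differed, kept barcodes of each library were placed in deciles by their Acta1 share, a split chosen after the class values were known. The first 4 deciles of F/R/C held no Acta1 UMI and were ordered by depth alone. Trp53 lay between 88.2 and 120 CPM in the first 8 deciles of F/R/C and at 37.5 and 23.7 CPM in the last 2. With CP it lay between 67.6 and 85.4 CPM in the first 8 and at 31.3 and 19.8 CPM in the last 2. Trp53 and Bax thus kept most of their level until the last 2 deciles, where Pax7 was also lowest, at 17.5 and 8.13 CPM without CP and 23.0 and 6.48 CPM with CP.

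In F/R/C iMPCs Phlda3 was at 246 CPM in the 8th decile, 112 CPM in the 9th and 215 CPM in the 10th, and Eda2r at 24.4, 18.7 and 39.3 CPM, so the dip lay within the Acta1-holding barcodes. In F/R/C+CP iMPCs no such dip was seen between these deciles: Phlda3 was at 157, 176 and 332 CPM and Eda2r at 25.9, 38.9 and 52.2 CPM. The same decile held unlike levels of Acta1, however. Acta1 stood at 398, 2850 and 11204 CPM in the 8th to 10th deciles of F/R/C and at 1547, 5673 and 15786 CPM in those of F/R/C+CP. The deciles therefore do not compare the libraries at equal Acta1, and a dip at the Acta1 level of the 9th F/R/C decile could be missed with CP. Myog stood at 1820 and 1802 CPM in the last 2 deciles of F/R/C and at 1103 and 1053 CPM in those of F/R/C+CP. Myogenin was thus higher in F/R/C than in F/R/C+CP in the 9th decile, and also in the 10th, where Phlda3 and Eda2r of F/R/C were higher again. The part of myogenin in the dip was not tested.

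**Figure D3:**
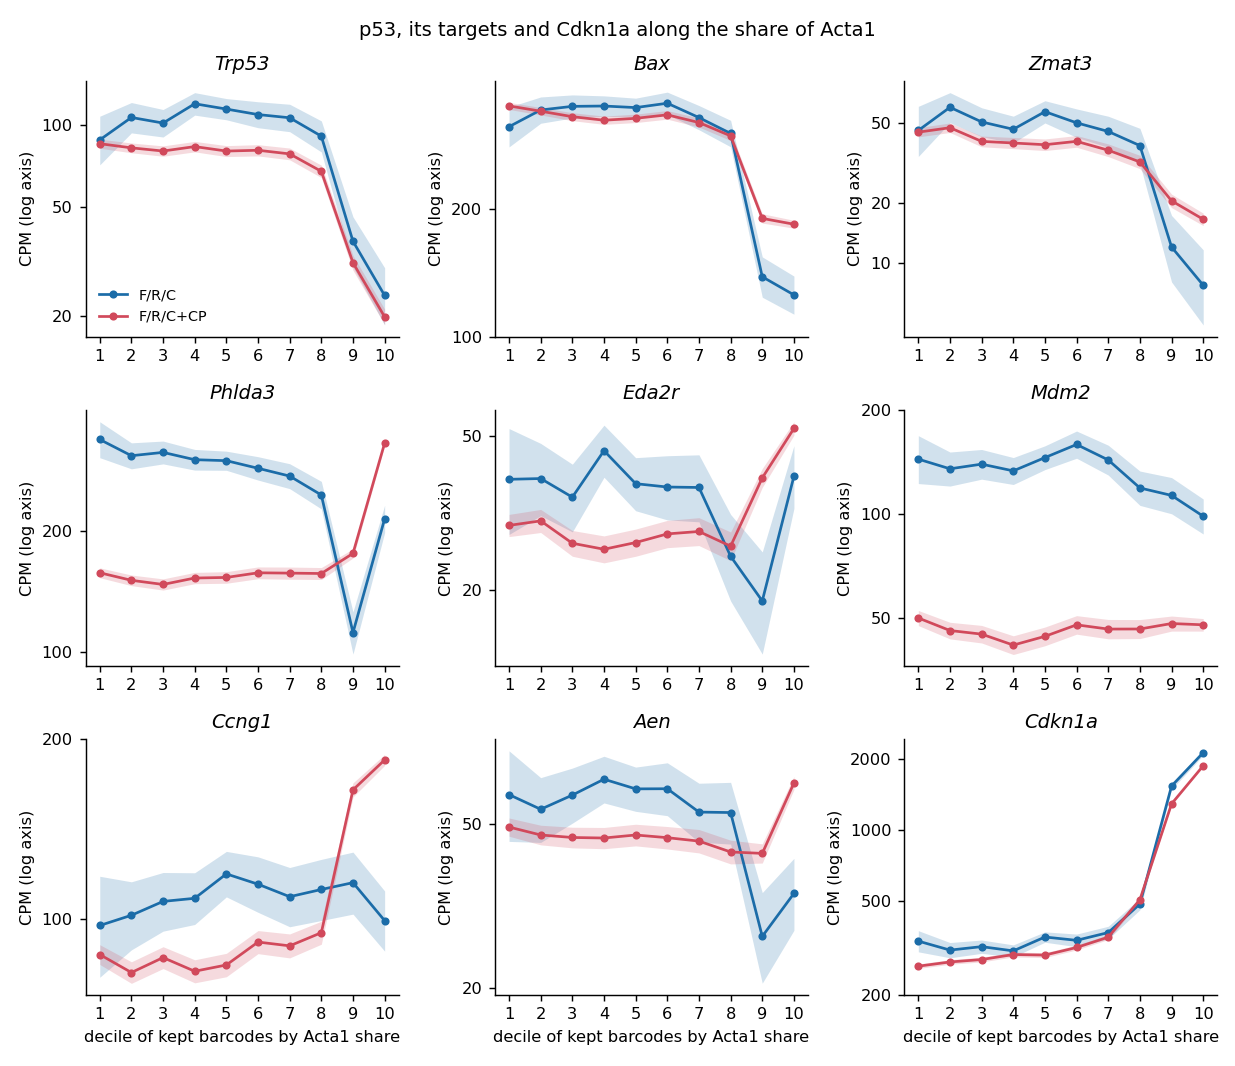
Levels in CPM (log axis) of Trp53, 7 targets of the list and Cdkn1a in deciles of kept barcodes ordered by Acta1 share, in F/R/C (blue) and F/R/C+CP (red), with exact Poisson 95% intervals as bands. Trp53, Bax and Zmat3 are lower in the last 2 deciles of both libraries, Cdkn1a is higher, and Phlda3 and Eda2r dip in the 9th decile of F/R/C.

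Cdkn1a, the gene of the cell cycle inhibitor p21 and the best-known p53 target, went the other way from Trp53. It stood at 322, 350, 934 and 2136 CPM in the Pax7-positive, cycling, Myog-high and Acta1-high barcodes of F/R/C and at 345, 293, 770 and 1879 CPM in those of F/R/C+CP. The log2 ratio of Acta1-high over Pax7-positive was 2.73 without CP and 2.44 with CP, against -2.20 and -2.02 for Trp53. Between the libraries Cdkn1a was nearly level over all kept barcodes (0.12).

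The list of cell cycle arrest targets, Cdkn1a included, was mixed between the libraries. Of the 6 listed, 3 were higher with CP over all kept barcodes and 0 were past 2-fold, with Gadd45a, a stress sensor, highest of those at 20 CPM or more (0.38) and Btg2, an antiproliferative gene, lowest (-0.48). Across classes, 3 of 5 measured (Cdkn1a, Gadd45a and Plk2) were past 2-fold higher in Acta1-high than in Pax7-positive barcodes of F/R/C, beside 10.1% of features, and 1 lower, beside 39.7%. With CP, 2 of 6 (Cdkn1a and Gadd45a) were past 2-fold higher, beside 12.1%, and 1 lower, beside 39.9%. Gadd45a stood at 60.1 against 243 CPM without CP and 48.4 against 297 CPM with CP.

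Of the 8 death targets besides the members, 1 was past 2-fold lower with CP over all kept barcodes, beside 14.3% of features, with a list median of -0.55 against -0.13 for all measured features. That gene was Apaf1, the scaffold that activates caspases, at 39.7 CPM without CP and 17.4 CPM in F/R/C+CP (-1.19). Pmaip1, the BH3-only death gene Noxa, had the highest ratio of the list among genes at 20 CPM or more (0.52). By class the list parted: Apaf1 was lower in Acta1-high than in Pax7-positive barcodes (-2.18 without CP and -2.02 with CP) and Pmaip1 higher (2.34 and 2.39). In Myog-high over Pax7-positive barcodes 6 of 8 were past 2-fold lower without CP, beside 26.5% of features, and 1 higher, beside 8.48%. With CP, 5 of 8 were lower, beside 27.9%, and 0 higher, beside 7.15%.

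Of the 5 DNA repair targets, 4 were higher with CP over all kept barcodes and 0 were past 2-fold (median 0.22), with the nuclease gene Ercc5 at 0.16 and the polymerase gene Polk at -0.77. Of the 8 metabolic and redox targets 2 were higher and 0 past 2-fold (median -0.11), with Rps27l, a ribosomal protein paralog, at 0.38 and Ephx1, an epoxide hydrolase, at -0.15. Ephx1 stood at 34.4 CPM in Pax7-positive barcodes and 2.71 CPM in Acta1-high barcodes of F/R/C, and at 30.2 and 6.56 CPM with CP. In Acta1-high over Pax7-positive barcodes 2 of 5 repair targets and 4 of 8 metabolic targets were past 2-fold lower without CP, beside 39.7% of features, and 1 of 5 and 4 of 8 with CP, beside 39.9%. Of the 12 feedback genes and regulators, 7 were past 2-fold lower without CP and 5 with CP, beside the same shares of features.

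Trp63 is the gene of the p53 relative p63. Of the pathway lists it had the largest log2 ratio in either direction of Acta1-high over Pax7-positive barcodes without CP (6.56). With CP its ratio was 2.60, and the largest in either direction was a negative one, that of the checkpoint kinase gene Chek1 (-4.29). Trp63 stood at 0.904 CPM (9 counts, 0.413 to 1.72) in Pax7-positive, 1.75 CPM in cycling, 10.7 CPM in Myog-high and 85.0 CPM (74.8 to 96.2) in Acta1-high barcodes of F/R/C. With CP the levels were 11.8, 6.06, 35.3 and 71.8 CPM. Trp63 was thus highest where Trp53 was lowest, in both libraries, and its Pax7-positive level was higher with CP, where Acta1 in the same barcodes was at 1177 CPM against 142 CPM without CP. Its log2 ratio over all kept barcodes was 1.05, and Trp73, the other relative, had too few counts to measure.

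The 9 targets were next summed per barcode in the thinned data. Pax7-positive F/R/C barcodes held a mean of 2.16 target UMIs per 2000, cycling 2.29, Myog-high 0.851 and Acta1-high 1.26. With CP the means were 1.58, 1.71, 0.908 and 1.66. Myog-high barcodes were lowest in both libraries, and 43.3% and 41.7% of them held no UMI of the 9 targets, against 15.3% and 22.0% of Pax7-positive barcodes. Bax and Phlda3 had the most counts of the 9 in Pax7-positive barcodes of both libraries, so the sum leans on levels already given. Cdkn1a is not in the sum and stood at 934 and 770 CPM in Myog-high barcodes.

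The spread of the target sums among barcodes of a class was looked at next. The variance was 1.47 times the mean in Pax7-positive and 1.01 times the mean in Myog-high barcodes of F/R/C, where independent counting of 1 common level would give a value near 1. With CP these values were 1.18 and 1.08, and in Acta1-high barcodes 1.32 without CP and 1.46 with CP. An excess over 1 grows with the mean, and the means differed, so the values cannot be ranked between classes or libraries. No other set of genes was summed in this way, so whether the spread is particular to these targets was not tested. Of Pax7-positive barcodes, 9.72% (133) held 5 or more target UMIs without CP and 3.67% (173) with CP, with maxima of 18 and 14.

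**Figure D4:**
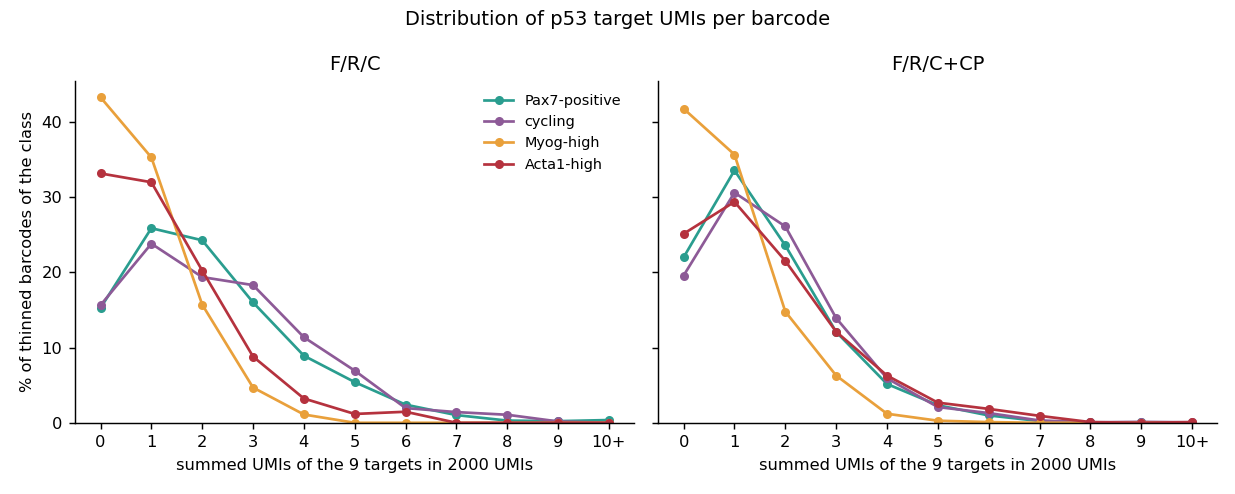
Share of thinned barcodes of each class (%) by the summed UMIs of the 9 targets among 2000 UMIs, in F/R/C (left) and F/R/C+CP (right). Myog-high barcodes crowd at 0 and 1 in both libraries, and the Pax7-positive curve of F/R/C reaches further right than that of F/R/C+CP.

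Whether the targets were found in the same barcodes was looked at by the Phlda3 count, a split chosen after the values were known. The barcodes were thinned, in a random draw other than that of the shares above. Ccng1 was found in 28.0% (21.8 to 35.0) of the 189 Pax7-positive F/R/C barcodes with 2 or more Phlda3 UMIs and in 18.7% (16.0 to 21.6) of the 771 with 0. With CP the shares were 21.1% (16.1 to 26.9) and 15.7% (14.5 to 17.0), with overlapping intervals. In Acta1-high F/R/C+CP barcodes the Ccng1 shares were 38.0% (30.2 to 46.3) of 150 and 22.4% (19.2 to 25.9) of 624. Over the 9 other members, 2 classes and 2 libraries, the intervals were apart in 2 of 36 comparisons, the Ccng1 ones, and overlapped in 34. Perp had too few UMIs to come apart, and only 33 Acta1-high F/R/C barcodes held 2 or more Phlda3 UMIs. An overlap therefore does not show that the targets lay in different barcodes. With 6 genes that are no members added, the intervals were apart in 3 of 60 comparisons and overlapped in 57. Besides Ccng1, only Cdkn1a was apart, in Pax7-positive barcodes with CP (50.4% and 40.7%), and its other comparisons overlapped. Mdm2 had shares of 28.0% and 21.7% in the Pax7-positive barcodes of F/R/C and Bax 47.6% and 50.2%, with overlapping intervals.

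Within Pax7-positive barcodes the members also differed with Cdkn1c, the gene of the cell cycle inhibitor p57. In barcodes at or below the median Cdkn1c share, 9 of 9 measured members were higher than in those above it in each library, with a median log2 ratio of 0.48 (0.06 over all measured features) without CP and 0.38 (0.12) with CP. Of all measured features 56.2% and 65.8% were higher. Trp53 had intervals that hold 0 in both libraries (0.14, -0.03 to 0.32, and 0.03, -0.03 to 0.09), and with CP Trp53 and Aen (0.08) lay below the median of all features. Mdm2 stood at 179 against 121 CPM without CP and at 58.6 against 39.5 CPM with CP. The list was chosen with this difference known. None of the 9 was past 2-fold in either library, beside 7.07% and 7.9% of features past 2-fold higher. The summed connective tissue markers moved with this split, at 332 against 204 CPM without CP and 231 against 82.7 CPM with CP, and their part in it was not tested.

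Barcodes that only the 15% limit on mitochondrial counts left out, 937 of F/R/C and 660 of F/R/C+CP, differed from the kept ones in opposite directions by gene. Trp53 was lower in them, at 26.2 against 92.4 CPM (-1.82) without CP and 24.6 against 64.1 CPM (-1.38) with CP, and so was Bax (-1.50 and -1.60). Eda2r was higher, at 54.7 against 35.7 CPM (0.61, 0.43 to 0.80) without CP and 78.0 against 33.2 CPM (1.23, 1.14 to 1.32) with CP. Of the 9 members measured without CP, 7 were lower, 3 of them past 2-fold, beside 25.9% of features past 2-fold lower. Only 26.8% of all measured features were higher there, and the median log2 ratio was -0.52 over the members and -0.49 over all features. The count of 7 without CP was thus near the background. Of the 10 measured with CP, 7 were lower, 2 of them past 2-fold, beside 21.8% past 2-fold lower. With CP 42.9% of all measured features were higher, and the medians were -0.64 over the members and -0.20 over all features. Past 2-fold higher were 2 of the 10, beside 17.1%, Eda2r and Perp, the latter only because its 0 counts, against 26 in kept barcodes, were set to the floor of 3 counts, so it has no direction.

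Across the 8 sums of 4 classes and 2 libraries, Phlda3 and Eda2r had a Pearson correlation of 0.97 on log2(CPM + 5), Bax and Zmat3 0.97, Zmat3 and Sesn2 0.93 and Trp53 and Bax 0.87. Mdm2 correlated with no other member above 0.39. The 8 points share 2 libraries and their depth, so these values are descriptions. Among 5943 features at 20 CPM or more on average, the courses most like that of Trp53 were those of Mtx1, Mbtps1 and Mtr (0.997 each). Those most like Mdm2 were Slc39a7 (0.990), Cdk6 (0.989) and Mdk (0.988), of which Cdk6, a kinase of the G1 phase, and Mdk, the growth factor midkine, ranged from 1.01 to 122 CPM and from 1.37 to 164 CPM. Those most like Ccng1 were Tmem248 (0.947), Atg101 (0.933) and Scamp3 (0.930).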

How the data were processed

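The authors deposited whole-number counts of UMIs per gene and barcode, made with Cell Ranger 7.0.0 on GRCm39 from 10x 3′ libraries. STARsolo and Seurat 4.2.1 are further tools in the submitters' processing notes. A correction for free RNA is described in the study for the F/R/C+CP library and could not be seen in the counts. How introns and strand were treated in counting was not given in the sources used here. On GRCm38.p6, Zmat3 overlaps a long noncoding RNA and Eda2r a pseudogene, and Trp53 has a processed pseudogene, so reads of these could be shared.

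Barcodes were kept with at least 250 genes, at most 4000 genes (7000 in the library with CP), 15% mitochondrial and 40% ribosomal protein counts. Doublets were kept, and leaving out the 176 and 1040 barcodes with the highest Scrublet scores was an alternative. Other alternatives were other barcode, class and depth limits, other totals, centring, a mean over barcodes and thinning to 4000 UMIs. Counts were summed per class and library and divided by the total. Ratios were formed for features with 10 or more counts over both sums, with a count of 0 set to a floor of 3 counts. "Past 2-fold" is a ratio of at least 2 or at most 0.5. Thinning drew 2000 UMIs per barcode without replacement (seed 1) and left shallower barcodes out, 25, 31, 33 and 55 of the Pax7-positive, cycling, Myog-high and Acta1-high barcodes of F/R/C and 0 of F/R/C+CP. The ratio and interval code was tested on simulated counts.

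Of the 12 cycling list genes, 12 had counts in every class. They summed to 1220, 4998, 1114 and 87.7 CPM in Pax7-positive, cycling, Myog-high and Acta1-high barcodes of F/R/C and to 1169, 4905, 549 and 112 CPM in F/R/C+CP. Of 4 pericyte or smooth muscle markers, 4 had counts except in Myog-high barcodes of F/R/C, which had 3. They summed to 169, 207, 1036 and 1007 CPM in the 4 classes of F/R/C and to 368, 243, 1246 and 663 CPM in F/R/C+CP. The 3 immune and 2 endothelial markers summed to at most 4.08 and 5.24 CPM. Barcodes within 10% of a class limit numbered 243, 184 and 71 (cycling, Myog-high and Acta1-high) in F/R/C and 494, 481 and 244 in F/R/C+CP.

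The text names all 10 members, Cdkn1a and Mdm4, and of each pathway list the genes with the highest and lowest ratio between the libraries over all kept barcodes among those at 20 CPM or more in either. Likeness is the Pearson correlation on log2(CPM + 5). Members, lists, classes and rules were chosen with earlier results of these data known. Python 3.11.15, numpy 2.4.6, scipy 1.17.1, pandas 2.3.3 and scanpy 1.11.5 (for Scrublet) were used.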

Additional observations from a re-analysis of the deposited data

Results flagged for a closer look

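For 3 members a class difference went opposite ways in the 2 libraries, with both counting intervals clear of 0. Each side rests on 1 library, so the difference between the libraries was not tested. Phlda3 in Acta1-high over Pax7-positive barcodes gave a log2 ratio of -0.59 without CP and 0.94 with CP. Aen in the same comparison gave -0.81 without CP and 0.47 with CP. Relative to the median of features at 50 CPM or more, which was -0.53 and -0.32 there, Phlda3 stood at -0.05 and 1.27 and Aen at -0.28 and 0.80. Ccng1 in cycling over Pax7-positive barcodes gave 0.21 without CP and -0.089 with CP, a small difference in both.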

How the results depend on the processing

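With 1 library a group no replicate could be left out. No paired analysis was possible because each group is 1 library. Of 28 member ratios past 2-fold, 27 kept their direction under all alternatives run for them and 14 stayed past 2-fold in all; the UMI range held by both libraries was run between the libraries only. Mdm2 between the libraries stayed past 2-fold lower throughout over all kept (-1.52 to -1.38), Pax7-positive (-2.24 to -1.47), cycling (-1.69 to -1.41) and Myog-high barcodes (-1.63 to -1.27), but not in Acta1-high barcodes (-1.15 to -0.83). The exception in direction was Zmat3 in Acta1-high barcodes of F/R/C+CP relative to F/R/C, at -0.33 within the UMI range held by both libraries (12097 to 23465 UMIs), where F/R/C had 42 such barcodes. In that range Trp53 over all kept barcodes also turned, from -0.53 to 0.20, on 190 F/R/C barcodes, and the cause was not tested. There the number of members past 2-fold between the libraries was 2 in Pax7-positive (1 reported), 2 in Myog-high (1) and 0 in Acta1-high barcodes (2). It was 1 in Acta1-high barcodes (2) with all deposited barcodes and 2 in Myog-high ones (1) as a mean of CPM per barcode. In Myog-high over Pax7-positive barcodes the number was 2 (4 reported) without CP with class limits of 20, 20 and 30%, and 2 (4) with CP both with these limits and with overlapping classes. In Acta1-high over Pax7-positive barcodes, centring on the median ratio gave 2 (4 reported) without CP and 7 (4) with CP, since Ccng1 (1.30), Phlda3 (1.27) and Eda2r (1.02) then passed 2-fold higher. In Acta1-high over Myog-high barcodes, whose alternatives were chosen after seeing the data, the number with CP was 5 (3 reported) both with all deposited barcodes and with class limits of 20, 20 and 30%. Of 133 alternative counts of members past 2-fold in all, 12 moved. Shallow barcodes entered the F/R/C library alone, and Myog-high Eda2r and Acta1-high Zmat3 of F/R/C rest on 18 and 23 counts.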
